A study of Rattus norvegicus with 14 samples.

Results

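The collagen chain genes were the genes of the deposited count and TPM tables whose symbol had the form Col, a number, a and a number, which took in every symbol for a collagen alpha chain and no collagen-processing gene. The rule used the symbols only and found 44 genes among the 30562 in the tables. Each collagen molecule is built of 3 alpha chains wound into a triple helix, and many types mix chains from different genes. Fibrillar collagens (types I, II, III, V, XI, XXIV and XXVII) form the fibres that give tissue its tensile strength, type IV forms the network of basement membranes, and type VI forms beaded filaments in between. FACIT collagens sit on the surface of fibrils, transmembrane collagens are anchored in the cell membrane, and in a peripheral ganglion collagens lie in the capsule, around the nerve fibres and vessels, and in the basement membranes that enclose glia and neurons.

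The libraries came from dorsal root ganglia L2 to L5, which hold the cell bodies of sensory neurons with their glia, vessels and connective tissue, of wild-type (WT) male rats, strain and age not given in the sources used here. In each rat the extensor digitorum longus, a muscle of the lower leg, was grafted to the saphenous nerve, a sensory nerve, on 1 hindlimb, and this side is called surgical; the other hindlimb was left unoperated and is called control. Ganglia were taken at 6 weeks (rats A, B and E; 3 control and 3 surgical libraries) or at 8 weeks (rats D, C, G and H; 4 and 4). All 14 libraries came from operated rats, so the control side is the unoperated side of an animal with a graft, and a difference between times is a difference between rats. The labels exchange the letters C and D between titles and library names on both sides, which leaves each pair intact, and the letters of the titles are used. One surgical title of rat C carries replicate 1 and was used as replicate 2. The study's title gives the aim of the surgery as a guided reinnervation that curbs pain and keeps sensation.

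Total estimated counts were 18489118 to 28237574 per library. Markers of other tissues stood out in 5 libraries, and the first of these stands apart in the collagens as well. In the surgical library of rat C the summed TPM of 10 skeletal muscle markers was 33001 and that of 14 cartilage and bone markers was 7194. In the other 13 libraries the bone sum was 115 to 434, highest in the surgical library of rat B, where spinal cord markers were high too (956 TPM, against 7.62 to 27.4 elsewhere). Muscle markers were also high in the control library of rat H (5888 TPM) and the surgical library of rat E (1339), and were 19.0 to 136 in the remaining 11. The library of rat H also had the highest sum of meningeal markers, 15246 TPM. In the control library of rat G the 7 adipocyte markers summed to 248 TPM, with Adipoq (adiponectin) at 23.4 against at most 2.65 elsewhere, and the 9 mural cell markers had their highest sum, 609.9 TPM. The 16 neuronal markers were present in all libraries and summed to 2014 TPM on the surgical side of rat A, to 3066 on the control side of rat B and to as much as 29678 on the surgical side of rat H; the 11 fibroblast markers were highest in the first of these (4574) and lowest in the surgical library of rat C (644). These are bulk libraries, in which fewer cells of a type and less RNA per cell cannot be told apart.

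All 44 genes were detected, and the levels spanned more than 3 orders of magnitude. Since TPM is scaled by transcript length, levels of different genes can be set side by side; means here are over the 13 libraries other than the surgical library of rat C. The most abundant chains were those of the interstitial fibrils, Col3a1 at 194 ± 116 TPM (SD, n = 13), Col1a2 at 122 ± 41.3 and Col1a1 at 110.1 ± 46.5. The means of Col1a2 and Col1a1 differed by less than either SD. They were followed by Col6a2 (41.3 TPM), Col6a1 (32.5), Col5a3 (26.1) and Col4a1 (22.03). The lowest was Col7a1, the chain of the anchoring fibrils of skin, at 0.135 TPM and 14 to 41 estimated counts. Summed over all 44 genes, collagen chains made up 406 to 1417 TPM in these 13 libraries and 7370.1 in the surgical library of rat C.

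**Figure D1:**
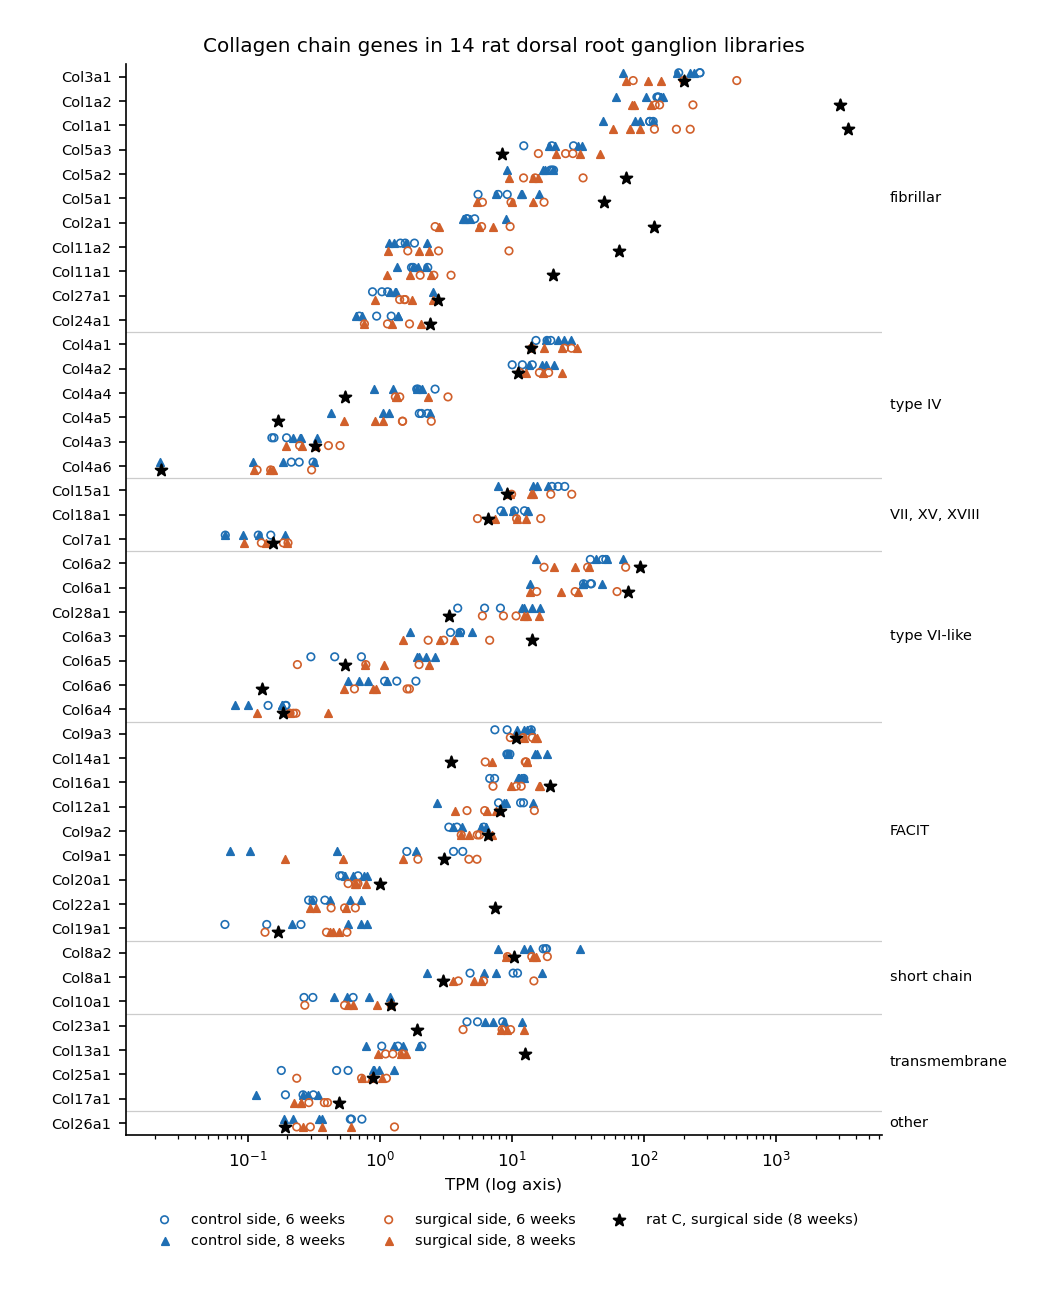
TPM of each of the 44 collagen chain genes (rows, grouped by class, log axis) in the 14 libraries: open circles at 6 weeks, triangles at 8 weeks, blue for the control and orange for the surgical side, and a black star for the surgical library of rat C. The star lies far to the right of the other points for Col1a1, Col1a2, Col2a1, Col11a1, Col11a2, Col13a1 and Col22a1.

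The make-up of the collagen pool was led by the 11 fibrillar genes in every library. They gave 68.3% ± 3.41 (SD, n = 3) of collagen TPM on the control side and 72.3% ± 4.60 (SD, n = 3) on the surgical side at 6 weeks, and 62.3% ± 3.26 (SD, n = 4) on the control side at 8 weeks. On the surgical side at 8 weeks the share was 60.5% ± 2.71 (SD, n = 3) in rats D, G and H and 95.7% in rat C. The 6 type IV genes gave 3.79% to 10.01% of the pool in the 13 libraries, highest in the control library of rat D, and 0.355% in the surgical library of rat C. Their summed TPM in that library was 26.1, against 29.1 to 59.0 in the 13. The 7 type VI-like genes gave 7.32% to 16.2% and the 9 FACIT genes 4.38% to 10.7%. The 4 transmembrane genes, the 3 short-chain genes and Col26a1 together with Col7a1, Col15a1 and Col18a1 made up the rest.

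**Figure D2:**
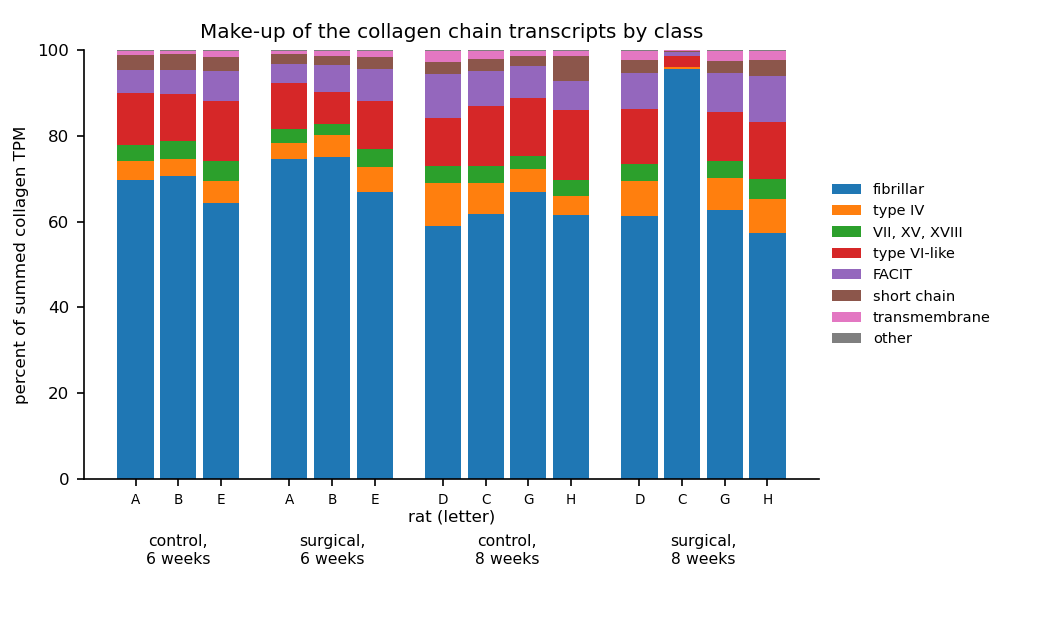
Percent of the summed collagen TPM that each class gave in each library, as stacked bars from 0 to 100 for the rats of each side and time. Fibrillar chains gave 95.7% in the surgical library of rat C and 57.5% to 75.2% in the other 13.

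Among the fibrillar genes, Col3a1 encodes the single chain of type III collagen, which is common in soft connective tissue. At 6 weeks it stood at 265, 263 and 183 TPM in the control and 503, 82.7 and 199 TPM in the surgical libraries of rats A, B and E. At 8 weeks it stood at 69.5, 179, 238 and 224 TPM in the control and 134, 199, 72.4 and 108 TPM in the surgical libraries of rats D, C, G and H. The groups overlapped; the highest level was on the surgical side of rat A, the library with the most fibroblast and the least neuronal marker RNA, and the lowest on the control side of rat D. Within rats, 4 of 7 had more Col3a1 on the surgical side and 3 less, and the log2 difference over both times was -0.33 (SE 0.47).

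Col1a1 and Col1a2 encode both chains of type I collagen, the main fibre of bone, tendon and fascia. Col1a1 stood at 117, 110.4 and 110.2 TPM in the control and 223, 176 and 119.8 in the surgical libraries of rats A, B and E, higher on the surgical side in all 3. At 8 weeks it stood at 49.0, 85.7, 117 and 93.8 TPM in the control and 92.5, 3469, 78.8 and 58.0 in the surgical libraries of rats D, C, G and H. The value of rat C was 31.5 times the median of the other 13 libraries, while the other 3 surgical libraries at 8 weeks lay within the range of the controls. Col1a2 gave a like picture, with 129, 127 and 125 TPM in the control and 234, 131 and 121 in the surgical libraries at 6 weeks, and 61.0, 104, 134 and 138 (control) and 112, 3041, 80.5 and 84.2 (surgical) at 8 weeks. The ratio of Col1a1 to Col1a2 was 0.679 to 1.34 in the 13 libraries and 1.14 in the surgical library of rat C, inside the range of the others. The ratio of Col1a1 to Col3a1 was 17.4 there, against 0.418 to 2.12 elsewhere, and the highest of those was the surgical library of rat B.

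The high levels in rat C were uneven across the chains. Of the 44 genes, 17 were higher in its surgical library than in all 13 others, 8 were lower than in all 13, and 19 lay inside their range. Among the high ones were 9 of the 11 fibrillar genes, with Col11a2 at 39.9 times the median of the others (65.0 TPM), Col2a1 at 25.0 times (119.7 TPM) and Col11a1 at 10.5 times (20.5 TPM); type II and type XI are best known as the fibrils of cartilage. Col22a1, a FACIT of the junction of muscle and tendon, stood at 7.41 TPM against 0.290 to 0.722, and Col13a1, a transmembrane collagen of the neuromuscular junction, at 12.6 against 0.788 to 2.08. These 5 genes, Col1a1 and Col1a2 were the members whose highest TPM was at least 5 times their median. Col5a1, whose product starts type I fibrils, came just below that level at 4.97 times (49.5 TPM).

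The 8 low members in that library were Col5a3, Col4a1, Col4a4, Col4a5, Col6a6, Col14a1, Col23a1 and Col28a1. Col4a5 was at 0.114 and Col6a6 at 0.136 times the median of the others, and Col28a1 at 0.278 times. The bone matrix gene Bglap (osteocalcin) stood at 6691 TPM in the same library against at most 328 elsewhere, Ibsp (bone sialoprotein) at 251 against at most 24.5, and Sp7 (osterix) at 7.82 against at most 0.509. In all, 11 of 14 cartilage and bone markers and 9 of 10 muscle markers were above all 13 other libraries there, and none of either list was at 0 in any library; of the other lists 3 of 8 macrophage, 3 of 9 mural cell, 2 of 7 adipocyte and 1 of 10 endothelial markers were above, and no fibroblast, meningeal, tendon, Schwann cell or neuronal marker was. Their part in the collagen levels of rat C was not tested. The muscle-rich control library of rat H had levels of the same chains inside the range of the other libraries, with 0.422 TPM of Col22a1, 1.97 of Col13a1 and 93.8 of Col1a1. The surgical library of rat B, second in bone markers, had the second highest Col11a2 at 9.51 TPM, with 2.63 of Col2a1, its lowest.

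The type V chains, which copolymerise with type I, split in that library: Col5a1 and Col5a2 were above and Col5a3 below all others. Col5a3, a chain that Schwann cells make, stood at 20.04, 12.3 and 29.3 TPM in the control and 25.5, 15.9 and 28.9 in the surgical libraries at 6 weeks, and 34.2, 31.8, 21.4 and 19.0 (control) and 46.7, 8.41, 21.4 and 32.9 (surgical) at 8 weeks. Without rat C, its log2 difference of the surgical from the control side at 8 weeks was 0.44 (SE 0.19). In that edgeR fit 0 of 44 members had an unadjusted p under 0.05 and 0 were called. With rat C the difference of Col5a3 was -0.01 (SE 0.35). The minor fibrillar genes Col24a1 and Col27a1 stood at 0.658 to 2.05 and 0.882 to 2.54 TPM in the 13 libraries.

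The type IV genes lie in the genome as 3 head-to-head pairs, each pair transcribed outward from a common stretch, per the RefSeq annotation of GRCr8; the build behind the deposited tables is not given in the sources used here. The starts of Col4a1 and Col4a2 are 76 bases apart, those of Col4a3 and Col4a4 412 and those of Col4a5 and Col4a6 1263. RefSeq windows from 250 bases before to 50 after the start show how closely the first pair shares its control region: the windows of Col4a1 and Col4a2 have 176 bases in common, on opposite strands. Both are printed 5′ to 3′ in the direction of each gene, and capitals mark the letters of a GC box (GGGCGG) or a CCAAT box (CCAAT) on either strand.
Col4a1, chr16:84885347-84885646 (+): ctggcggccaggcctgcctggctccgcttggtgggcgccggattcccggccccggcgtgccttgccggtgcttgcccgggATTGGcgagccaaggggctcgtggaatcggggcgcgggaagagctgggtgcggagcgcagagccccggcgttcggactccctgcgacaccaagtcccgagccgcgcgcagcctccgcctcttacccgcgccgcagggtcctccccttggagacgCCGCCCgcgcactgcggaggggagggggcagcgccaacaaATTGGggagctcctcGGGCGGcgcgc
Col4a2, chr16:84885471-84885770 (-): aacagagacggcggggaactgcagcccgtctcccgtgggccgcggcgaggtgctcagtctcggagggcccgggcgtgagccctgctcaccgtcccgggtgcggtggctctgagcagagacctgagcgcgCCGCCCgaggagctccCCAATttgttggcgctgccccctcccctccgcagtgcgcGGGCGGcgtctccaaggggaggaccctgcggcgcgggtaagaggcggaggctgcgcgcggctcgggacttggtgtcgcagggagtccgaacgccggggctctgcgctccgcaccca
The windows of Col4a3 and Col4a4 have 88 bases in common and are shown because this pair is built alike but did not keep a fixed proportion of levels.
Col4a3, chr9:91323740-91324039 (+): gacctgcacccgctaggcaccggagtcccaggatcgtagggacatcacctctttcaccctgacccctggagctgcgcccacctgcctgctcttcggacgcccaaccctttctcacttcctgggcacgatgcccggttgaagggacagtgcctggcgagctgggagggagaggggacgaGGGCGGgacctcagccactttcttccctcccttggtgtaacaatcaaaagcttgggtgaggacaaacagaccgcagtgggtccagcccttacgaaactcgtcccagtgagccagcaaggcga
Col4a4, chr9:91323528-91323827 (-): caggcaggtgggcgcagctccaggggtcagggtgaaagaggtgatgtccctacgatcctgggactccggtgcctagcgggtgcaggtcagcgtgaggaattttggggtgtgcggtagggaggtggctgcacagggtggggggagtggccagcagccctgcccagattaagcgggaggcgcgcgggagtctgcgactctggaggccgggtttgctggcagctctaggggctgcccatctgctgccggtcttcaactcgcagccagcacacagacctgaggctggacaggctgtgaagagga
The window of Col4a4 held neither set of letters, and that of Col4a3 held 1 GC box. Windows were found for 35 of the 44 genes (38 windows). A GC box was found in 52.6% of these windows against 33.1% of all 33469 promoter windows, a CCAAT box in 31.6% against 37.5%, and a TATA box (TATAAA) in 10.5%, or 4 windows (Col1a2, Col10a1, Col13a1 and Col17a1), against 14.2%. Such a match describes the letters of the window and is not a shown binding site.

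Col4a1 and Col4a2, the chains of the basement membrane found in nearly all tissues, stayed close to a fixed proportion. Col4a1 stood at 18.5, 15.2 and 19.7 TPM in the control and 28.2, 14.1 and 25.0 in the surgical libraries at 6 weeks, and at 22.2, 27.8, 24.8 and 18.2 (control) and 31.2, 14.03, 17.4 and 24.1 (surgical) at 8 weeks. Col4a2 stood at 12.0, 10.1 and 14.3 TPM (control) and 19.0, 11.5 and 16.2 (surgical) at 6 weeks, and at 16.8, 20.8, 18.01 and 13.5 (control) and 24.1, 11.04, 12.9 and 17.1 (surgical) at 8 weeks. Libraries high in one were high in the other, and all 4 groups overlapped. The ratio of Col4a1 to Col4a2 was 1.23 to 1.54 over 13 libraries and 1.27 in the surgical library of rat C. On the log2 scale the ratio had an SD of 0.10 over all 14 libraries, against 0.38 for Col4a1 and 0.37 for Col4a2 alone.

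Col4a3, Col4a4 and Col4a5 form the type IV network best known from the kidney filter and the inner ear, and Col4a6 pairs with Col4a5 in other basement membranes. All 4 were low here. Col4a3 stood at 0.158, 0.197 and 0.153 TPM in the control and 0.501, 0.409 and 0.248 in the surgical libraries at 6 weeks, and at 0.247, 0.220, 0.255 and 0.338 (control) and 0.330, 0.325, 0.260 and 0.197 (surgical) at 8 weeks, on 16 to 64 counts per library. At 6 weeks all 3 surgical libraries were above all 3 control libraries; at 8 weeks the sides overlapped. Col4a4 stood at 0.913 to 3.28 TPM in 13 libraries and did not follow. The ratio of Col4a3 to Col4a4 ran from 0.0604 to 0.289 in 13 libraries and was 0.593 in the surgical library of rat C, with a log2 SD of 0.82 that includes the counting error of the low Col4a3. Col4a5 stood at 1.99, 2.30 and 2.07 TPM (control) and 2.46, 1.49 and 1.49 (surgical) at 6 weeks, and at 0.427, 1.17, 1.07 and 2.41 (control) and 0.919, 0.169, 0.539 and 1.07 (surgical) at 8 weeks, lowest in the surgical library of rat C. Col4a6 was at or below 0.316 TPM throughout.

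**Figure D3:**
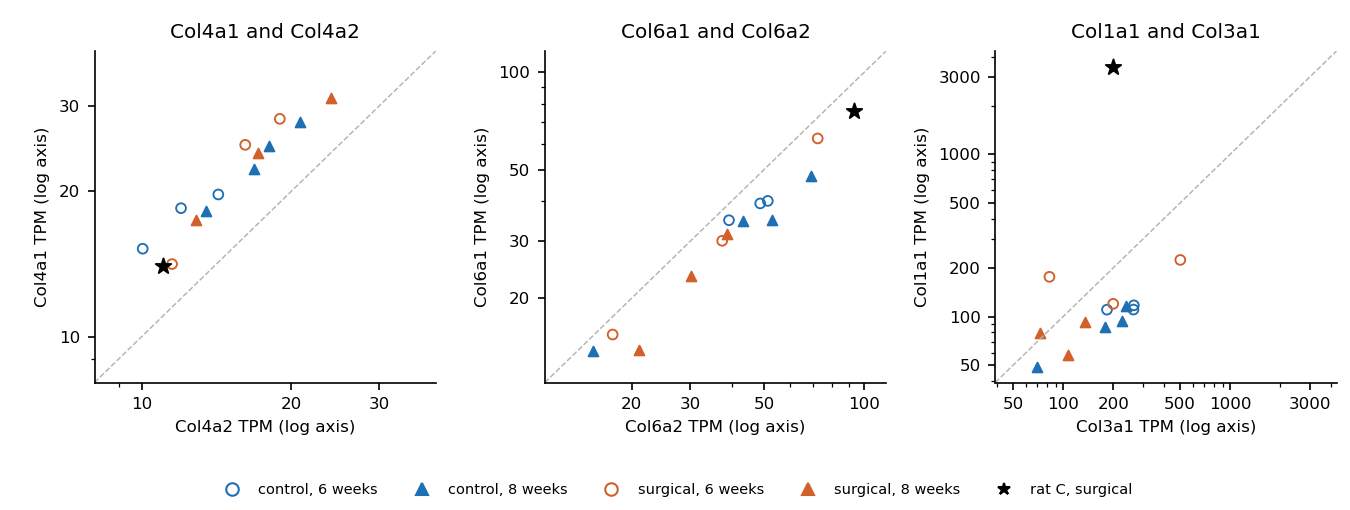
TPM of Col4a1 against Col4a2, Col6a1 against Col6a2 and Col1a1 against Col3a1 in the 14 libraries (log axes; the dashed line marks equal levels; the star is the surgical library of rat C). The first 2 pairs keep close to a line parallel to the diagonal, with ratios of 1.23 to 1.54 and 0.659 to 0.894, and in the third the star stands at a ratio of 17.4.

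Col15a1 and Col18a1, multiplexins that link basement membranes to the tissue beneath them, and Col7a1 formed the next class. Col15a1 stood at 20.1, 25.1 and 22.3 TPM in the control and 28.4, 9.95 and 19.7 in the surgical libraries at 6 weeks, and at 7.84, 14.3, 15.6 and 18.8 (control) and 13.8, 9.16, 9.73 and 14.5 (surgical) at 8 weeks. All 4 control libraries at 8 weeks were below all 3 at 6 weeks, and on the surgical side rat B at 6 weeks lay among the rats of 8 weeks. Col18a1, the source of endostatin, stood at 5.49 to 16.5 TPM with overlapping groups.

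The type VI-like class held the chains of type VI collagen and Col28a1, a related chain that in nerve is known to surround glia. Col6a1 stood at 39.3, 34.8 and 40.0 TPM in the control and 62.5, 15.4 and 30.1 in the surgical libraries at 6 weeks, and at 13.7, 34.6, 34.8 and 47.9 (control) and 31.6, 75.9, 13.8 and 23.5 (surgical) at 8 weeks. Col6a2 followed it, with a ratio of Col6a1 to Col6a2 of 0.659 to 0.894 in 13 libraries and 0.814 in the surgical library of rat C, and a log2 SD of 0.15 against 0.75 for Col6a1 alone. Col6a3, the remaining classical chain, was far lower per transcript length, at 1.504 to 6.79 TPM and 14.2 in the surgical library of rat C.

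The alternative chains Col6a4, Col6a5 and Col6a6, neighbours in one row on the chromosome, differed from each other. Col6a5 stood at 0.456, 0.301 and 0.727 TPM in the control and 0.238, 0.785 and 1.98 in the surgical libraries at 6 weeks, and at 1.91, 2.23, 2.61 and 1.97 (control) and 2.36, 0.545, 0.773 and 1.08 (surgical) at 8 weeks. All 4 control libraries at 8 weeks were above all 3 at 6 weeks. Col6a6 stood at 1.35, 1.09 and 1.88 TPM (control) and 1.61, 0.644 and 1.68 (surgical) at 6 weeks, and at 0.573, 1.14, 0.691 and 0.810 (control) and 0.942, 0.128, 0.537 and 0.890 (surgical) at 8 weeks, and on the control side was lower in 3 of the 4 rats of 8 weeks than in any of 6 weeks. Col6a4 stayed at 0.0802 to 0.406 TPM. Col28a1 stood at 6.22, 3.89 and 8.19 TPM in the control and 8.63, 5.98 and 10.8 in the surgical libraries at 6 weeks, and at 12.0, 14.2, 16.3 and 12.4 (control) and 13.1, 3.33, 12.3 and 15.9 (surgical) at 8 weeks. Its control libraries at 8 weeks were all above those at 6 weeks, and its lowest value was the surgical library of rat C.

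Of the FACIT genes, Col9a3, Col14a1 and Col16a1 were the most abundant, at means of 12.3, 11.6 and 11.2 TPM. Col9a1, Col9a2 and Col9a3 together form type IX collagen, known from cartilage and the eye, yet Col9a1 did not keep pace with the other two. It stood at 1.60, 4.25 and 3.62 TPM in the control and 5.44, 1.94 and 4.73 in the surgical libraries at 6 weeks, and at 0.472, 0.105, 1.90 and 0.0737 (control) and 0.528, 3.08, 1.504 and 0.191 (surgical) at 8 weeks. Its counts ran from 4 to 372, the lowest on the control sides of rats C and H, while Col9a2 stayed within 3.33 to 7.12 and Col9a3 within 7.43 to 15.5 TPM. Col19a1, which lies tail to tail with Col9a1, stood at 0.140, 0.0675 and 0.254 TPM (control) and 0.136, 0.396 and 0.565 (surgical) at 6 weeks, and at 0.723, 0.577, 0.807 and 0.217 (control) and 0.493, 0.169, 0.445 and 0.419 (surgical) at 8 weeks. Its sides overlapped at both times. Col12a1, a FACIT of tendon and fascia, stood at 2.70 to 14.8 TPM, and Col20a1 and Col22a1 reached at most 0.794 and 0.722 TPM in the 13 libraries.

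The short-chain genes Col8a1 and Col8a2 form the lattice of vessel walls and of the membrane below the corneal endothelium, and Col10a1 marks growing cartilage. Col8a2 had a mean of 15.4 TPM and was highest in the control library of rat H at 32.8, the library with the most meningeal marker RNA; Col8a1 was highest there too, at 16.8. Whether the meningeal RNA bears on them was not tested. Col10a1 stood at 0.267 to 1.23 TPM. Among the transmembrane genes Col23a1 led with a mean of 8.08 TPM, followed by Col13a1 (1.38) and Col25a1 (0.770), a membrane collagen known from the innervation of muscle by motor axons; Col17a1, of the hemidesmosome, was lowest at 0.276. Col25a1 stood at 0.472, 0.180 and 0.576 TPM in the control and 0.236, 1.12 and 0.729 in the surgical libraries at 6 weeks, and at 0.896, 0.982, 0.905 and 1.27 (control) and 1.05, 0.897, 0.738 and 0.859 (surgical) at 8 weeks. Its 4 control libraries at 8 weeks were above the 3 at 6 weeks, and the sides overlapped. Col26a1, a short secreted collagen outside the other classes, stood at 0.611, 0.733 and 0.599 TPM in the control and 1.29, 0.299 and 0.235 in the surgical libraries at 6 weeks. At 8 weeks it stood at 0.189, 0.345, 0.221 and 0.363 TPM (control) and 0.366, 0.192, 0.262 and 0.608 (surgical), with all 4 controls below the 3 of 6 weeks.

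The main question of the design was whether the grafted side differed from the unoperated side. No collagen chain gene passed in either direction: over both times the edgeR quasi-likelihood test with Benjamini-Hochberg adjustment called 0 of 44, and 0 had an unadjusted p under 0.05. Of all 17035 genes tested it called 0 (0%), and 412 (2.42%) were under 0.05 unadjusted; DESeq2 and limma also called 0 of the collagen genes. The log2 difference was above 0 for 26 of 44, with a median of 0.11 against 0.00038 over all genes; on the TPM scale 22 of the 37 tested were above 0. The fibrillar genes had the highest class median, 0.42 with 9 of 11 above 0, and this rested on rat C: with both libraries of that rat left out the median was 0.07 with 6 of 11 above 0. Type IV had a median of -0.02 (3 of 6 above 0), type VI-like -0.17 (2 of 7) and FACIT 0.17 (7 of 9). With rats B, C and H all left out, the rats whose libraries held the most bone, spinal cord, meningeal or muscle RNA, 40 of 44 genes were above 0 with a median of 0.24, where 45.9% of all 16969 genes were above 0 with a median of -0.02. In that fit edgeR called 0 members and 0 (0%) of all genes. By edgeR Col23a1, Col24a1 and Col6a4 had an unadjusted p under 0.05, all higher on the surgical side, as did 289 (1.7%) of all genes. In rats A, E, D and G, which were kept, the neuronal sum was lower on the surgical side in each. It was 2014, 17954, 23370 and 24376.5 TPM against 7061, 19094, 26633 and 27872. The fibroblast sum was higher on the surgical side in A and D (4574 and 1804 against 3076 and 1011). In E and G it was lower (2654 and 1529 against 3095 and 2825). The part of these sums was not tested.

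Over both times the smallest unadjusted p values belonged to Col24a1 at 0.44 (SE 0.20), with more on the surgical side in 6 of 7 rats, Col4a5 at -0.69 (SE 0.39) and Col4a3 at 0.50 (SE 0.31). Each had an adjusted p of 1 by edgeR with Benjamini-Hochberg adjustment, so no difference beyond the spread between rats was shown. Of the chains followed in every comparison, the type I pair stood at 0.62 (SE 0.70) for Col1a1 and 0.43 (SE 0.68) for Col1a2, and without rat C at 0.13 and -0.05. The basement membrane pair was near 0, with 0.02 (SE 0.20) for Col4a1 and 0.06 (SE 0.17) for Col4a2. Col5a1 stood at 0.32, Col6a1 at -0.17, Col6a2 at -0.20, Col6a3 at 0.04, Col15a1 at -0.28, Col18a1 at -0.21, Col25a1 at 0.13 and Col28a1 at -0.08. The SEs of these 8 were 0.23 to 0.49, so all lay within 1 SE of 0.

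At 6 weeks 24 of 44 genes were above 0 (median 0.02, all genes -0.008). edgeR called 0 of the 44 and 0 had an unadjusted p under 0.05, against 0 (0%) and 546 (3.21%) of all genes. DESeq2 called 0 of the 44 too, and limma 0 of the 37 it tested. On the TPM scale 23 of 37 were above 0, with a median of 0.17 where that of all genes was 0.16. The smallest p values were those of Col19a1 at 0.996 (SE 0.51) and Col4a3 at 0.91 (SE 0.47), with more of both on the surgical side by counts in 3 of 3 rats (by TPM in 2 of 3 for Col19a1), and Col8a2 at -0.62 (SE 0.46). Single rats set the balance of signs: 12 of 44 were above 0 without rat A and 37 without rat B. Col1a1 stood at 0.35 (SE 1.05), Col1a2 at 0.08 (SE 1.02), Col3a1 at -0.38 (SE 0.79) and Col5a1 at 0.23 (SE 0.69). The 3 classical type VI chains were below 0, Col6a1 at -0.53 (SE 0.73), Col6a2 at -0.57 (SE 0.74) and Col6a3 at -0.29 (SE 0.75), with 1 of 3 rats higher for each. Col4a1 stood at 0.07, Col4a2 at 0.15, Col15a1 at -0.54, Col18a1 at -0.23, Col25a1 at 0.40 and Col28a1 at 0.27, with SEs of 0.28 to 0.55.

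At 8 weeks 25 of 44 genes were above 0 (median 0.21, all genes 0.0057), and 20 of 44 without rat C (median -0.07). On the TPM scale 18 of 37 were above 0. edgeR and DESeq2 called 0 of the 44 and limma 0 of the 37 it tested, and edgeR called 0 (0%) of all genes. Only Col24a1 had an unadjusted p under 0.05 by edgeR; 180 (1.06%) of all genes did, 82 (0.481%) of them higher on the surgical side. Col24a1, a fibrillar chain known from developing bone and cornea, stood at 1.38, 1.38, 0.658 and 0.730 TPM in the control and 2.05, 2.38, 0.757 and 1.24 in the surgical libraries of rats D, C, G and H. All 4 rats had more of it on the surgical side although the groups overlapped, and its log2 difference was 0.72 (SE 0.24) with an unadjusted p of 0.019 and an adjusted p of 1 (edgeR). Without rat C, whose surgical library held the bone markers, it was 0.54 (SE 0.24), higher in 3 of 3. The next smallest p values were those of Col6a5 at -0.97 (SE 0.46), higher in 1 of 4, and Col6a4 at 0.85 (SE 0.45), higher in 3 of 4.

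The interstitial chains at 8 weeks turned with rat C. Col1a1 stood at 0.90 (SE 1.08) with it and -0.10 (SE 0.41) without it, Col1a2 at 0.80 (SE 1.04) and -0.18 (SE 0.46), and Col5a1 at 0.40 (SE 0.65) and -0.28 (SE 0.50). Col6a1 went from 0.13 to -0.41, Col6a2 from 0.11 to -0.43 and Col6a3 from 0.33 to -0.36. Col3a1 was below 0 either way, at -0.29 and -0.63. Col28a1 turned the other way, from -0.35 to 0.05 (it was low in that library). Col4a1 stood at -0.01, Col4a2 at -0.0017, Col15a1 at -0.10, Col18a1 at -0.19 and Col25a1 at -0.05 with all 4 rats.

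**Figure D4:**
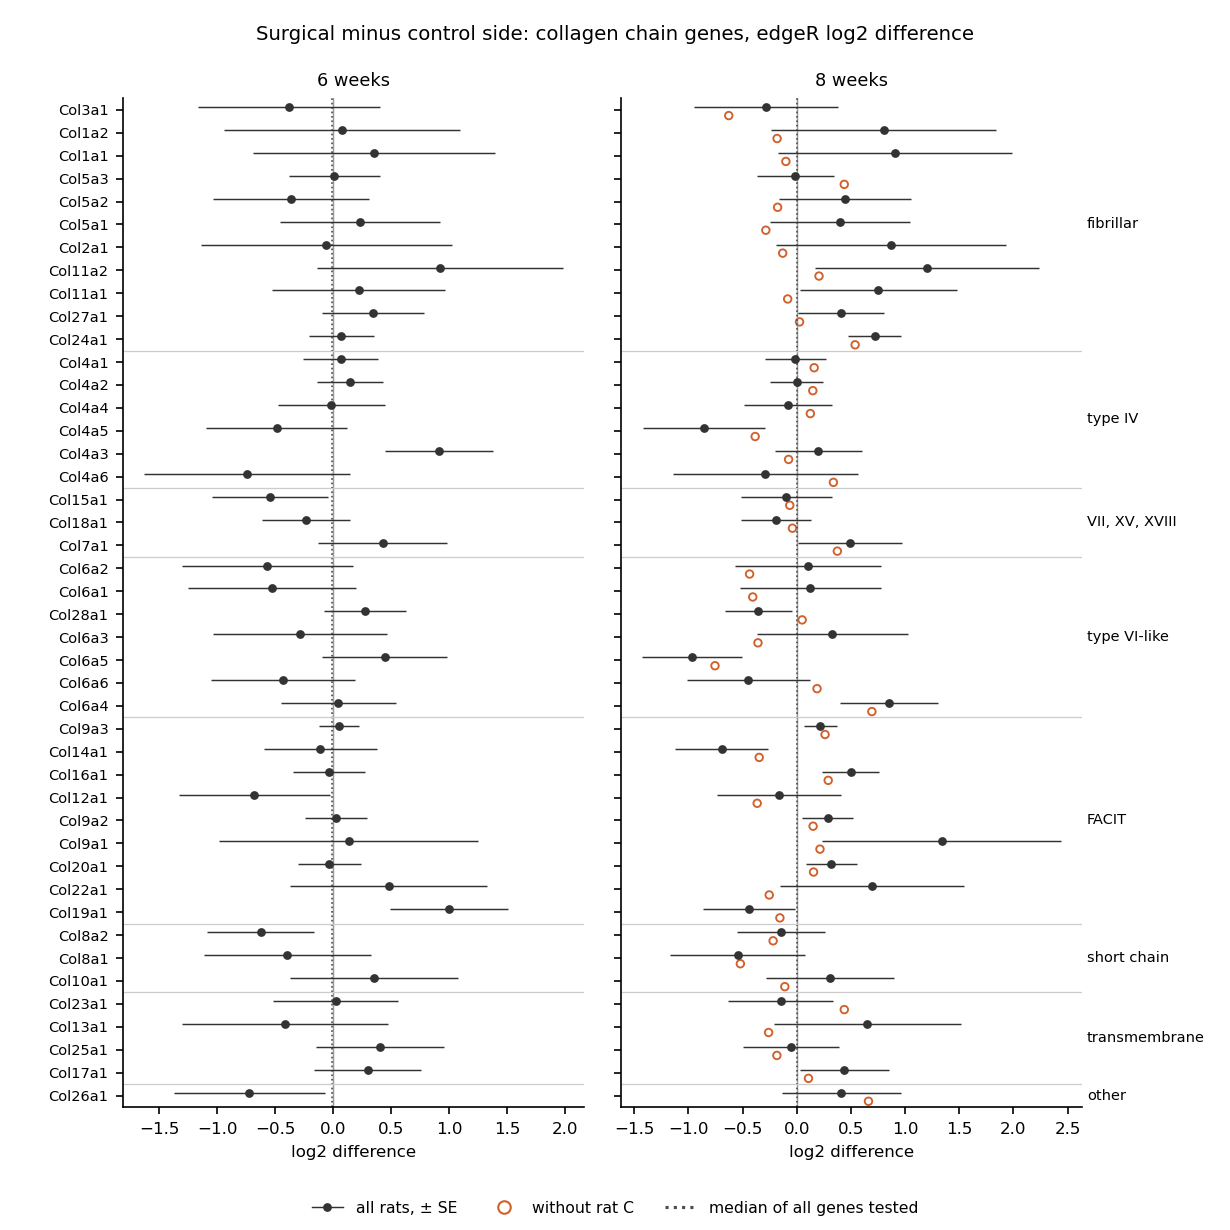
Log2 difference of the surgical from the control side for each collagen chain gene at 6 and at 8 weeks (points, with bars of 1 SE; open circles without rat C at 8 weeks; the dotted line is the median of all genes tested). Most bars reach 0, and at 8 weeks Col1a1 and Col1a2 move from 0.90 and 0.80 to below 0 without rat C.

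The difference between the side effects of the 2 times was tested in the same model. edgeR called 0 of 44 genes, 0 had an unadjusted p under 0.05, and DESeq2 and limma called 0; of all genes 0 (0%) were called and 252 (1.48%) were under 0.05. The smallest p values were those of Col19a1 at -1.44 (SE 0.66), Col6a5 at -1.41 (SE 0.71) and Col24a1 at 0.65 (SE 0.37), where a negative value means that surgical minus control was lower at 8 than at 6 weeks. Of the genes followed throughout, Col1a1 stood at 0.55, Col1a2 at 0.72, Col3a1 at 0.09, Col5a1 at 0.17, Col6a1 at 0.65, Col6a2 at 0.67 and Col6a3 at 0.62, with SEs of 0.94 to 1.51. Col4a1 (-0.08), Col4a2 (-0.15), Col15a1 (0.45), Col18a1 (0.04), Col25a1 (-0.45) and Col28a1 (-0.63) had SEs of 0.37 to 0.71.

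Between the times, the control sides of different rats were compared, so time cannot be told apart from differences between rats. By counts, 37 of 44 genes were lower at 8 weeks, with a median log2 difference of -0.58 against -0.06 over all 16346 genes, but 0 passed the edgeR test. On the TPM scale, where the median of all genes was 0.45 log2 higher at 8 weeks, 18 of the 36 members tested were above 0 and 18 below; relative to the median of all genes, 34 of 44 were lower by counts and 30 of 36 by TPM, and the median of the members lay 0.52 and 0.44 below it. By edgeR 3 members were higher and 12 lower at an unadjusted p under 0.05, against 2270 (13.9%) and 2838 (17.4%) of all genes, 5108 (31.2%) together, and 25 (0.153%) of all genes passed the adjusted threshold. DESeq2 called 9 of the 44 members and 3133 of all 15615 genes, so its calls were common among all genes too. Higher at 8 weeks were Col6a5, Col19a1 and Col28a1, and lower were Col1a1, Col5a2, Col6a6, Col9a1, Col15a1 and Col26a1. limma called 0, and edgeR called 9 without rat E, the same with Col11a1 in place of Col9a1. The count of all genes called without rat E is not given here.

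Summed marker levels differed between the controls of the 2 times in part. The neuronal sum was 7061, 3066 and 19094 TPM in the controls of rats A, B and E and 26633, 24228, 27872 and 14545 in those of rats D, C, G and H, and the fibroblast sum 3076, 4279 and 3095 against 1011, 2564, 2825 and 3179. The meningeal sum was 3789.7, 5259 and 5611 TPM against 664, 1205, 333 and 15246. The 10 markers of myelinating Schwann cells summed to 7849.7, 8988 and 8629 TPM against 5299, 7943, 3860.0 and 5962, and the 8 of macrophages to 282, 428 and 233 against 152, 153, 168 and 280.3. In rats D and G the neuronal sum was above, and the other 4 sums below, all 3 rats of 6 weeks. In rat H the neuronal, fibroblast and macrophage sums lay inside the range of 6 weeks and the meningeal sum above it, and in rat C the Schwann cell sum lay inside. Not all marker lists went this way. The 9 mural cell markers summed to 283, 365 and 219 TPM against 147, 452, 610 and 266, above all rats of 6 weeks in C and G. The 7 of satellite glia summed to 2720, 1925 and 5191 TPM against 4739, 4784, 5857 and 4675. With the neuronal level as a covariate 12 of 44 members were above 0 and the median was -0.34. Longer transcripts also had relatively fewer reads in the controls at 6 weeks than at 8 weeks, and collagen transcripts are long, the median member at percentile 91.0 of length; with that trend removed 5 of 44 were above 0 and the median was -0.70. The neuronal sums of rats A and B lay below those of all rats of 8 weeks, so the covariate cannot be fully told apart from time. The length trend is not a measure of tissue make-up. Medians of all genes in both fits are not given here. The part of tissue make-up was not tested.

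The smallest p values on the control side belonged to Col6a5 at 1.58 (SE 0.21), Col6a6 at -1.43 (SE 0.24) and Col26a1 at -1.87 (SE 0.38), with edgeR adjusted p of 0.055, 0.074 and 0.082. Within the type VI-like class Col6a5 was thus the highest and Col6a6 the lowest. Col15a1 stood at -1.32 (SE 0.32) and Col28a1 at 0.60 (SE 0.17); on the TPM scale the signs were the same, at -0.69 and 1.09. Col1a1 stood at -1.01 (SE 0.30), Col1a2 at -0.83 (SE 0.32) and Col3a1 at -1.10 (SE 0.46), with TPM differences of -0.45, -0.29 and -0.54. Col6a1 stood at -0.84 (SE 0.39), Col6a2 at -0.65 (SE 0.45) and Col6a3 at -0.74 (SE 0.37), also negative by TPM. Col4a1 (-0.25 by counts, 0.36 by TPM), Col4a2 (-0.08 and 0.48) and Col18a1 (-0.42 and 0.10) changed sign with the scale. Col5a1 (0.07 and 0.57) and Col25a1 (0.76 and 0.52) were positive on both.

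On the surgical side 17 of 44 genes were above 0 at 8 against 6 weeks (median -0.18, all genes 0.0056), and 7 of 44 without rat C (median -0.66). On the TPM scale, where the median of all genes was 0.21 log2 higher at 8 weeks, 23 of 37 were above 0 and 25 below that median. edgeR and DESeq2 called 0 of the 44, and limma 0 of the 37 it tested. By edgeR 0 members were higher and 3 lower at an unadjusted p under 0.05, against 810 (4.88%) of 16606 genes lower, 1089 (6.56%) in either direction and 0 (0%) past the adjusted threshold. The 3 were Col4a5 at -1.85 (SE 0.58), Col15a1 at -1.10 (SE 0.43) and Col8a1 at -1.39 (SE 0.56), with adjusted p of 0.67 each by edgeR. Without rat C these were -1.56, -1.07 and -1.31.

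The fibrillar chains again turned with that rat. Col1a1 went from 2.35 (SE 1.69) to -1.57 (SE 0.45) without it, Col1a2 from 2.22 (SE 1.58) to -1.25 (SE 0.47) and Col5a1 from 0.59 (SE 0.90) to -0.62 (SE 0.61), while Col3a1 was -1.42 (SE 0.75) and -1.85 (SE 0.80). The class median of the 11 fibrillar genes was 0.59 with rat C and -1.05 without. All 6 type IV genes were below 0 by counts with and without it, though 2 were above 0 without rat A; Col4a1 stood at -0.41 and Col4a2 at -0.27 with all rats, and by TPM at -0.05 and 0.03. Col6a1 (-0.31), Col6a2 (-0.22) and Col6a3 (0.22) went to -1.15, -1.002 and -1.09 without rat C. Col18a1 stood at -0.59, Col25a1 at 0.23 and Col28a1 at 0.05.

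**Figure D5:**
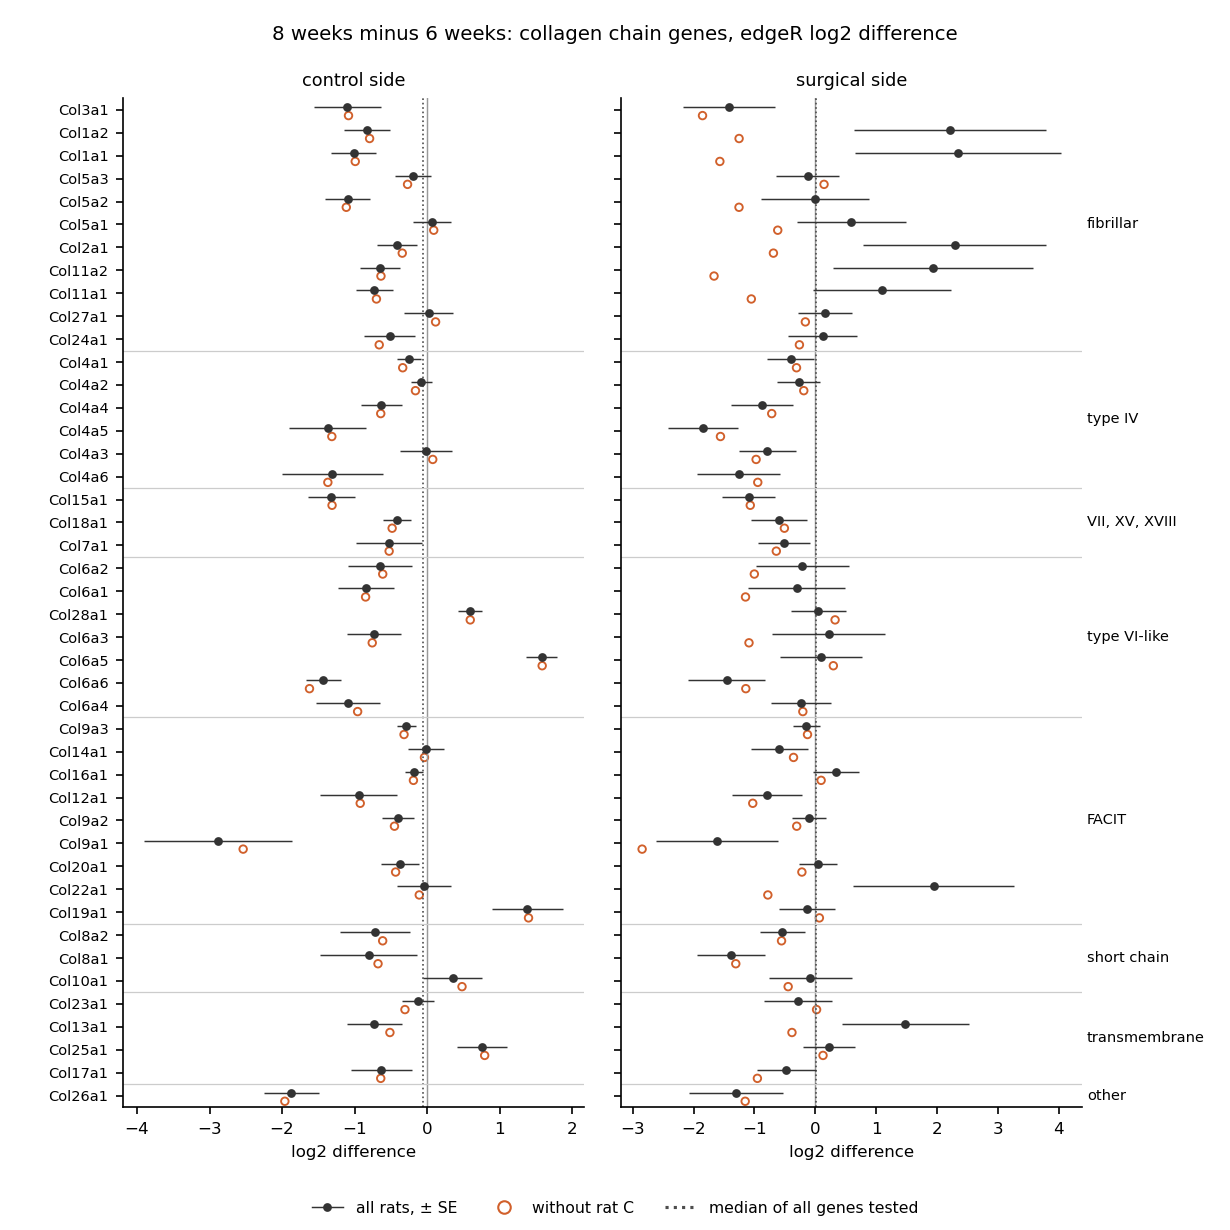
Log2 difference of 8 from 6 weeks for each collagen chain gene on the control and on the surgical side (points with bars of 1 SE; open circles without rat C; the dotted line is the median of all genes tested). On the control side 37 of 44 points lie below 0, with Col6a5 farthest above, and on the surgical side Col1a1 moves from 2.35 to -1.57 without rat C.

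Of the genes that make, finish and bind collagen, edgeR, and limma on TPM, called 0 of the 5 lists in all 6 comparisons. DESeq2 calls are not given for these lists. Over both times, 9 of 21 genes of collagen modification and folding were above 0 on the surgical side (median -0.05); the smallest p was that of Fkbp14, a folding enzyme, at -0.25 (SE 0.17). Of 11 genes of propeptide cleavage and cross-linking 6 were above 0 (median 0.08), led by the procollagen protease Adamts3 at 0.31 (SE 0.28). Of 8 collagen receptors 4 were above 0 (median 0.14), led by the integrin gene Itga1 at 0.28 (SE 0.20). All 8 small leucine-rich proteoglycans, which coat fibrils, were below 0 (median -0.44), led by Ogn (osteoglycin) at -0.79 (SE 0.50), and of 17 laminins and other partners in basement membranes 6 were above 0 (median -0.16), led by Lamc3 at -0.44 (SE 0.30). Over all genes 50.1% were above 0. The counts of the proteoglycans and of the basement membrane partners turned when rats were left out: without rats B, C and H, 6 of 8 and 14 of 17 were above 0.

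At 6 weeks the genes of smallest p in the same 5 lists were Mia3 (0.27, SE 0.18), Adamts3 (0.65, SE 0.44), Itga1 (0.46, SE 0.31), Omd (-0.95, SE 0.94) and Lamc3 (-1.11, SE 0.36, lower in 3 of 3 rats). At 8 weeks they were Plod2 (0.68, SE 0.52), Bmp1 (0.52, SE 0.37), Itga10 (1.22, SE 0.95), Aspn (-0.85, SE 0.68) and Sparc (0.47, SE 0.46). For the difference between the times they were P3h1 (0.70, SE 0.59), Bmp1 (0.91, SE 0.56), Itga10 (1.72, SE 1.33), Lum (0.83, SE 0.90) and Lamc3 (1.15, SE 0.47). None was called, and the unadjusted p was under 0.05 by edgeR only for Lamc3, a laminin chain, at 6 weeks and in the difference.

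Between the times 13 basement membrane partners, 7 modification genes, 4 maturation genes, 4 proteoglycans and 0 receptors were under an unadjusted p of 0.05 by edgeR on the control side, and 3 proteoglycans alone on the surgical side, where the shares of all genes were 31.2% and 6.56%. The partners of type IV in basement membranes were mostly lower by counts, as were the collagens. On the control side 13 of 16 were lower at 8 weeks by counts (median -0.66; 13 of 15 lay below the median of all genes by TPM, but only 7 below 0), 12 of them at an unadjusted p under 0.05 against 17.4% of all genes, led by Nid2, a nidogen that links laminin to type IV collagen, at -1.08 (SE 0.20) with an edgeR adjusted p of 0.078. All 8 proteoglycans were lower by counts and 7 of 8 by TPM (median by counts -1.08), led by Lum (lumican) at -1.83 (SE 0.39). By counts also lower were 15 of 21 modification genes (median -0.20; P3h1 -0.83 (SE 0.23)), 8 of 11 maturation genes (median -0.45; Bmp1 -0.86 (SE 0.23)) and 5 of 8 receptors (median -0.08; Itga1 0.55 (SE 0.25)). By TPM 18 of 21, 5 of 9 and 5 of 6 of these lists were above 0, but 13, 7 and 3 lay below the median of all genes. On the surgical side 12 of 17 partners (median -0.40; Nid1 -1.12 (SE 0.52)) and 7 of 8 proteoglycans (median -0.97; Ogn -2.06 (SE 0.71)) were lower. By counts 11 of 21 modification genes (P4ha3 0.52, SE 0.25), 3 of 11 maturation genes (Loxl4 1.84, SE 1.23) and 3 of 8 receptors (Ddr2 -0.71, SE 0.41) were lower, with medians of -0.0044, 0.15 and 0.13. Without rat C these counts were 15 of 21, 9 of 11 and 5 of 8, and the value of Loxl4 is from a fit that holds the library with the bone markers.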

How the data were processed

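RNA of dorsal root ganglia of 7 rats, 1 control and 1 surgical library each, had been sequenced. The labels call the RNA polyA while their protocol names depletion of ribosomal RNA, and the values do not settle which was used. The authors deposited 2 tables of the whole series, estimated counts per gene (whole numbers) and TPM, that is counts scaled by transcript length and library total. FastQC, Trim Galore, Salmon and DESeq2 are named in the submitters' processing notes, with no version; the build and annotation are not given in the sources used here. In 682 cells of the tables the count was 0 while the TPM was above 0. The total counts given in the results bear on counting error only. The SEs of the edgeR fits also hold the spread between rats.

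The test on the estimated counts was that of edgeR 4.0.16 (R 4.3.3; filterByExpr with a minimum count of 10, TMM scaling, robust quasi-likelihood test, two-sided, Benjamini-Hochberg adjustment over all genes tested, threshold 0.05). The model for both times was rat plus side (6 residual degrees of freedom), and those for each time and for their difference had a side term for each time (5). The times were compared on 1 side at a time without a rat term (5). The SE of a log2 difference was computed as the absolute difference over the root of F, and log2 CPM used a prior count of 2. As alternatives served DESeq2 1.42.0, edgeR with DESeq2 scaling, other filters on low counts (none, or 1 CPM in 3 libraries), no robust estimation, limma 3.58.1 on log2(TPM + 1) and log2(TPM + 0.1) for genes of mean TPM 0.5 or more, a transcript length trend (lowess, span 0.3) removed, the neuronal marker level as a covariate, no rat term, only the libraries of a time, rats B, C and H left out, and each rat left out in turn. The TPM scale and the left-out rats were added for the lists of collagen partners after the data had been seen.

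Libraries with the same rat letter in their titles come from the same rat, so the rat was a block. The correlation of deviations from the group means over 17035 genes was 0.26 in rat A, -0.12 in B, 0.75 in E, -0.09 in D, -0.41 in C, 0.13 in G and -0.31 in H. Members, classes, partner lists and marker lists were chosen with earlier results of these data known. The text names, in each comparison, members past the threshold or else the 3 of smallest unadjusted p, and in all comparisons Col1a1, Col1a2, Col3a1, Col4a1, Col4a2, Col5a1, Col6a1, Col6a2, Col6a3, Col15a1, Col18a1, Col25a1 and Col28a1. By level it names the 3 highest of each class and members whose highest TPM was at least 5 times their median, and of a partner list the gene of smallest p. Dcn and Lum are in both the fibroblast and the proteoglycan list, and Dcn, Lum and other markers are made by more than 1 cell type. Col21a1, Pcolce2 and 4 listed markers were not analysed here. Where reads of overlapping or similar genes could be shared, the estimates split them by the authors' settings, which are not given. Promoter windows, gene order and distances are from RefSeq (GRCr8); all 44 members were matched by symbol, and 35 had a window.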

Additional observations from a re-analysis of the deposited data

Results flagged for a closer look

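In 104 groups of 4 libraries at 8 weeks (88 of single collagen genes, 16 of class shares), 16 held a highest or lowest value far from the other 3; chance gives about 1 in 20 groups. Of these, 13 were the surgical library of rat C. Its Col1a1 stood at 3469 TPM against 58.0 to 92.5 in rats D, G and H, Col1a2 at 3041 against 80.5 to 112, Col2a1 at 119.7 against 2.83 to 7.23 and Col11a2 at 65.0 against 1.15 to 2.34. Col11a1 stood at 20.5 TPM against 1.13 to 2.46, Col5a2 at 72.7 against 9.47 to 15.8, Col6a3 at 14.2 against 1.504 to 3.64 and Col13a1 at 12.6 against 0.974 to 1.58. Col22a1 stood at 7.41 TPM against 0.296 to 0.554, and Col17a1, a chain of epithelial anchoring, at 0.489 against 0.224 to 0.255. In shares of collagen TPM, fibrillar chains gave 95.7% there against 57.5% to 62.7%, type IV 0.355% against 7.41% to 8.37% and transmembrane chains 0.216% against 2.13% to 2.33%. The share of a class also falls when another class rises. In summed TPM the transmembrane chains stood at 15.9 there, above the 6.32 to 15.1 of the other 13 libraries. Type IV stood at 26.1 TPM against 29.1 to 59.0. The part of the bone and muscle RNA of that library in these values was not tested.

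On the control side at 8 weeks, Col27a1 stood at 2.54 TPM in rat H against 1.20 to 1.33 in the other 3 rats. In the same library the short-chain genes gave 5.96% of collagen TPM against 2.54% to 2.86%. Col2a1 stood at 8.95 TPM in the control library of rat G against 4.25 to 4.78 in the others, and the bone markers of that library summed to 278 TPM, the third highest of the 14. The surgical library of rat B, with a bone sum of 434 TPM, had the lowest Col2a1 at 2.63. Whether bone RNA bears on Col2a1 was not tested.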

How the results depend on the processing

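Counts of collagen genes called were 0 under every alternative run for 5 of the 6 comparisons. For the control sides of 8 against 6 weeks they were 9 by DESeq2, 1 with no filter on low counts (Col6a5) and 0 to 9 with each rat left out, the 9 without rat E; with the other alternatives run they were 0. DESeq2 called 3133 of 15615 genes there and edgeR 25 of 16346, and the cause was not tested. The counts of all genes called with no filter and without rat E are not given here. The member counts of those fits therefore stand without a share of all genes. Over both times, single genes named in the results turned as follows: Col4a1 to -0.069 with the length trend removed and -0.019 with the neuronal covariate; without rats B, C and H, Col3a1 to 0.15, Col4a5 to 0.018, Col6a1 to 0.084 and Col28a1 to 0.19; with no replicate block, Col6a1 to 0.15 and Col28a1 to 0.0053. Dropping the replicate block changed no call. With each rat left out the ranges were -0.085 to 0.15 for Col4a1, -0.58 to 0.0042 for Col3a1, -0.47 to 0.13 for Col6a1 and -0.18 to 0.16 for Col28a1. On the control side between the times Col4a1 turned to 0.36 and 0.38 by TPM (pseudocounts 1 and 0.1). On the surgical side Col6a1 turned to 0.77 with the neuronal covariate and Col1a1 to -1.45 without rats B, C and H; with each rat left out the ranges were -0.82 to 0.051 for Col4a1, -1.15 to 0.70 for Col6a1, -0.29 to 0.33 for Col28a1 and -1.57 to 2.84 for Col1a1. Of the remaining values of single genes 339 kept direction and side of the threshold, and 210 did with a rat left out. Leaving out a rat at 6 weeks leaves 2 pairs, and the chains under 1 TPM rest on few counts, down to 3 for Col4a6.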
